A study of Mus musculus with 22 samples.

Results

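Myb, Sox4 and Lef1 are 3 transcription factor genes of lymphoid progenitors, and their probe sets were followed here from wild type B cells through premalignant Eμ-Myc B cells to Eμ-Myc lymphomas. The members were taken by gene symbol: 3 genes of the 12393 with a single symbol on the array, read by 10 of its 22690 probe sets (3 for Myb, 6 for Sox4 and 1 for Lef1). Only Myb and Sox4 passed the filter for low values (log2 intensity above 4 on at least 4 arrays) and were among the 6437 genes tested; Lef1 did not pass and is described by its values. The samples were 4 wild type and 5 premalignant B cell preparations of littermates, by the series' design, and lymphomas of 13 independent Eμ-Myc mice, all C57Bl/6. Every sample, each lymphoma included, is labelled with an age of 4 to 6 weeks, and no age of the mice at lymphoma was given apart from this in the sources used here. The premalignant and malignant samples carry the Eμ-Myc transgene, in which the immunoglobulin heavy chain enhancer drives Myc in B lineage cells, and the wild type samples do not. B cells were separated on magnetic beads that bind B220 or IgM, from spleen or bone marrow. The labels give the tissue of each array only as these alternatives, so a difference of tissue cannot be told apart from genotype or stage. Wild type and premalignant samples are labelled B220+ and the lymphomas are not, so a difference of bead cannot be told apart from malignancy. Each sample was read on 1 MOE430A array, a short-oligonucleotide array, so the number of arrays limits the precision. The labels do not say whether the wild type and premalignant replicates came from separate mice, so p-values measure only the spread between these samples.

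Myb binds DNA through its repeats and recruits CREBBP and EP300. It is needed for early lymphoid development, and its level falls as B cells mature. Sox4 is a high mobility group protein that is required for the survival of pro-B cells. Lef1, of the same broad protein class, pairs with beta-catenin to carry the Wnt signal to target genes and is made in pro-B and pre-B cells and in T cells. The members are on different chromosomes in GRCm38.p6: Myb at chr10:21124930-21160984, Sox4 at chr13:28948919-28953699 and Lef1 at chr3:131110297-131224357.

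The 250 bases before the RefSeq start (GRCm38.p6) of the members and of Il7r, the interleukin 7 receptor chain, are shown because Myb, Lef1 and Il7r were highest on the same arrays, described further on, and Sox4 in part. Capitals mark matches to the MYB motif AACNG on either strand. The windows lie at chr10:21160985-21161234 (minus strand) for Myb, chr13:28953700-28953949 (minus strand) for Sox4, chr3:131110047-131110296 (plus strand) for Lef1, the first of 4 listed starts, and chr15:9529877-9530126 (minus strand) for Il7r.
Myb: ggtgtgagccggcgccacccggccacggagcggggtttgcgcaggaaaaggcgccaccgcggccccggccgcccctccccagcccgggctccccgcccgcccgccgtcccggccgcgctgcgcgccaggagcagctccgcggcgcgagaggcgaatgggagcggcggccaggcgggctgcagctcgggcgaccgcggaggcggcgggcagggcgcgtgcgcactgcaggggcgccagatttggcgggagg
Sox4: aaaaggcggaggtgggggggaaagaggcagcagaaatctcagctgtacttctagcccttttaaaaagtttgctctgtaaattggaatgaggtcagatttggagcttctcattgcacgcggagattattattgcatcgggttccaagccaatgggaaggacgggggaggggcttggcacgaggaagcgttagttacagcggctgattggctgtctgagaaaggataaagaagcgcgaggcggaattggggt
Lef1: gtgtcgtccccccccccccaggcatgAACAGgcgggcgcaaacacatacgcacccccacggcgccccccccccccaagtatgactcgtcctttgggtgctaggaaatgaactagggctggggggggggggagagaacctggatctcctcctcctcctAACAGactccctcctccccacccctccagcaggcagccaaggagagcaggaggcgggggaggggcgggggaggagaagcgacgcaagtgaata
Il7r: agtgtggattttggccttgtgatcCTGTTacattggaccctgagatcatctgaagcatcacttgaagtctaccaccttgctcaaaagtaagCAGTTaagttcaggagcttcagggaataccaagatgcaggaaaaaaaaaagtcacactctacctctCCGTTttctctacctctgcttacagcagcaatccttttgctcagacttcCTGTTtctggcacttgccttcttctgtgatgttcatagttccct
AACNG was found 0 times before Myb and Sox4, 2 times before Lef1 and 4 times before Il7r, and 74.2% of the 32851 windows of the same length in the table hold it. The E-box CACGTG (in 6.0% of windows), the LEF/TCF letters CTTTGAT or CTTTGAA (7.5%) and the SOX letters AACAAAG (5.0%) were found in none of the 4 windows on either strand; no motif contains another. G and C made up 81.2% of the Myb window, 66.4% of that of Lef1, 50.8% of that of Sox4 and 44.0% of that of Il7r. A match is a string of letters and was not tested as a binding site.

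The arrays' own quality measures moved with the stages. The difference between the 3′ and 5′ probe sets of beta-actin, a measure of RNA length, was 0.643 to 0.861 (log2) in wild type, 0.577 to 0.811 in premalignant and 1.295 to 2.493 in malignant samples, so it cannot be told apart from malignancy. Wild type replicate 2 and premalignant replicate 1 correlated least with their own groups. B lineage identity genes were present at every stage, with a summed level of log2 15.2 to 15.51 in wild type, 14.67 to 15.1 in premalignant and 12.0 to 13.92 in malignant samples (11 genes, of which Pax5 did not exceed log2 4 on any array). The summed level of 20 stroma and endothelium genes was 8.52 to 8.65, 7.92 to 8.25 and 9.57 to 12.26 in the same order, and Lum, Cdh5, Tek, Vwf and Pdgfra did not exceed log2 4 on any array. Of 18 T cell genes, 12 stayed at or below log2 4 on every array, Cd3e, Cd3g, Cd5 and Bcl11b among them. The summed level of the 18 was 8.94 to 9.61, 8.47 to 9.28 and 6.94 to 8.61. Only Cd4 and Cd2 of these passed the filter. Cd2 had means of 8.87, 8.56 and 6.05, so this gene made up most of the sum in wild type and premalignant samples. The part of stroma, endothelium, T cells and RNA quality in the results below was not tested. In such bulk samples, fewer cells of a type and less RNA per cell cannot be told apart.

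Myb rose at each step. In wild type B cells its log2 intensity was 6.44, 7.0, 4.95 and 5.38, and in premalignant cells it was 9.15, 7.8, 8.11, 7.76 and 7.8. The wild type and premalignant ranges did not overlap, and premalignant replicate 1 was the highest of its group. The 13 lymphomas ran from 8.77 to 10.29 with a median of 9.44, above every wild type array, and 7 of them lay above every premalignant array. The group means were 5.94 ± 0.94 (SD, n = 4), 8.13 ± 0.59 (n = 5) and 9.45 ± 0.57 (n = 13).

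Sox4 rose at the premalignant step and then spread out. Its log2 intensity was 6.72, 6.53, 5.66 and 5.48 in wild type and 8.29, 7.79, 8.69, 8.15 and 8.48 in premalignant cells, with no overlap. Among the lymphomas it ran from 5.51 to 9.43 with a median of 8.01, so 3 lymphomas lay above every premalignant array, 5 lay below every premalignant array, and 3 of those 5 lay within the wild type range. The group means were 6.10 ± 0.62 (SD, n = 4), 8.28 ± 0.34 (n = 5) and 7.87 ± 1.25 (n = 13).

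Lef1 was near the bottom of the scale on all arrays but a few lymphomas. Its log2 intensity was 2.46, 2.51, 2.39 and 2.39 in wild type and 2.54, 2.41, 2.86, 2.39 and 2.4 in premalignant cells. In the lymphomas it ran from 2.29 to 5.02 with a median of 2.39, and only lymphomas 6 (5.02) and 7 (4.11) exceeded log2 4. Values at the bottom of this scale are not evidence of expression, and a single probe set reads the gene.

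**Figure D1:**
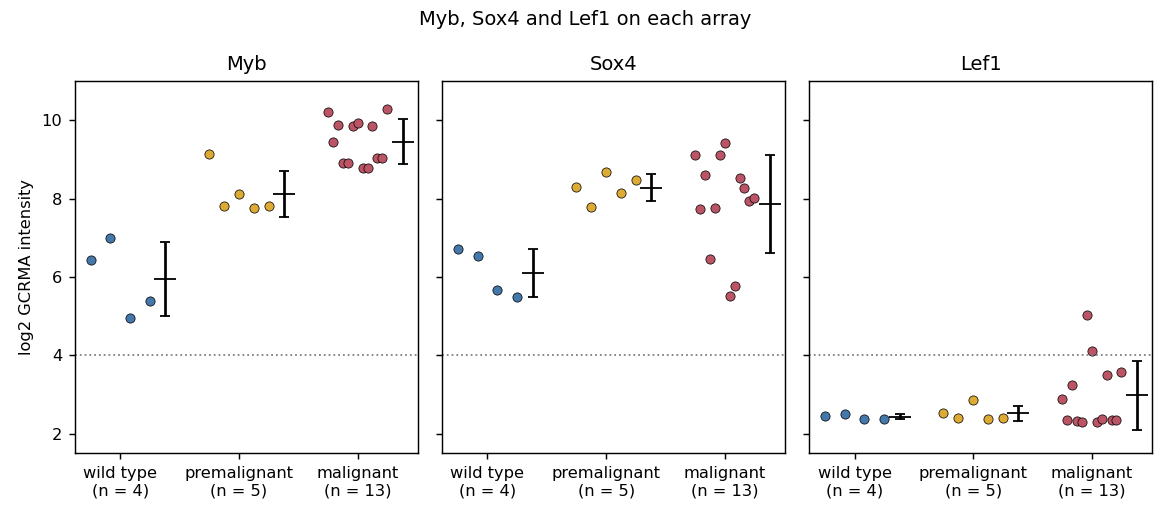
Log2 intensity (vertical axis) of Myb (probe set 1421317_x_at), Sox4 (1433575_at) and Lef1 (1421299_a_at) on each of 22 arrays by stage (horizontal axis); each point is an array, the black bar beside each group is its mean with the SD, and the dotted line is the log2 4 used by the filter. Wild type and premalignant points do not overlap for Myb and Sox4, Sox4 spreads from 5.51 to 9.43 among the lymphomas, and only 2 lymphomas exceed the line for Lef1.

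The first comparison, of premalignant with wild type cells, asks what differs with the transgene before lymphoma. Myb was 4.54-fold higher (log2 difference 2.18, SE 0.43, limma adjusted p = 0.00432) and Sox4 4.53-fold higher (2.18, SE 0.28, adjusted p = 4.6e-04), each higher in 5 of 5 premalignant arrays than in any wild type array. Of all genes tested, 12.7% were called higher and 14.1% lower, and 24.1% had groups that did not overlap. Calls depend on the scaling: centred on the hybridisation spikes, 81.2% of calls were higher in place of 47.4% here, and 74.9% in place of 51.7% for lymphomas against wild type, with the median of all genes moving from -0.05 to 0.20, from 0.09 to 0.22 and from 0.04 to 0.43 in the 3 comparisons. Myb and Sox4 kept their directions and calls, with differences of 2.44 each here. The exact two-sided permutation test over samples gave p = 0.00794 for each gene, the smallest that its 126 splits can give. For Lef1 the groups' means, 2.44 and 2.52, were both below log2 4, so no fold is given (exact permutation p = 0.619).

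The rise of Myb was seen at all of its probe sets, with differences of 2.10 (adjusted p = 6.3e-04) at 1422734_a_at and 1.81 (adjusted p = 0.0019) at 1450194_a_at. The rise of Sox4 was not. Besides the probe set of highest mean, only 1419157_at passed (1.59, adjusted p = 0.0181), and there every group mean was below log2 4. The differences at 1419155_a_at (1.47, adjusted p = 0.116), 1419156_at (0.75, adjusted p = 0.188) and 1449370_at (0.48, adjusted p = 0.445) did not pass. At 1449370_at premalignant replicate 1 stood at 5.15 and the other premalignant arrays at 2.99 to 3.02. The probe set 1455867_at never exceeded log2 4 on any array.

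The second comparison, of lymphomas with premalignant cells, shows what differs between the transgenic stages. Myb was 2.51-fold higher in lymphomas (1.33, SE 0.28, limma adjusted p = 9.9e-04; exact permutation p = 8.2e-04 over 8568 splits), and the groups overlapped. Sox4 did not pass (-0.41, SE 0.53, adjusted p = 0.554; exact permutation p = 0.494), nor did Lef1 in an exact permutation test on 13 and 5 arrays (p = 0.276), its means being 2.98 ± 0.87 and 2.52 ± 0.20. Of all genes tested, 24.8% were called higher and 17.3% lower. The other Myb probe sets gave smaller differences: 0.70 (adjusted p = 0.0316) at 1450194_a_at and 0.57 (adjusted p = 0.156) at 1422734_a_at. The other Sox4 probe sets did not share a direction, and 1449370_at passed in the direction of higher in lymphomas (1.41, adjusted p = 0.0448), with a premalignant mean of 3.43 that lies below log2 4.

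The third comparison, of lymphomas with wild type cells, spans both steps and shares its groups with the others. Myb was 11.37-fold higher (3.51, SE 0.35, limma adjusted p = 1.0e-07; higher in 13 of 13 lymphomas than in any wild type array), and its exact permutation p of 4.2e-04 is the smallest that 2380 splits can give. Sox4 was 3.41-fold higher (1.77, SE 0.60, adjusted p = 0.0163; exact permutation p = 0.016), and 10 of 13 lymphomas lay above every wild type array. Of all genes tested, 31.8% were called higher and 29.7% lower, and 33.7% had groups that did not overlap. The Sox4 call did not hold without wild type replicate 3 (adjusted p = 0.0543) or wild type replicate 4 (adjusted p = 0.0607). All 8 Myb and Sox4 probe sets that passed the filter were higher in lymphomas, with differences of 1.36 to 3.51. For Lef1 the exact permutation p was 0.281.

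**Figure D2:**
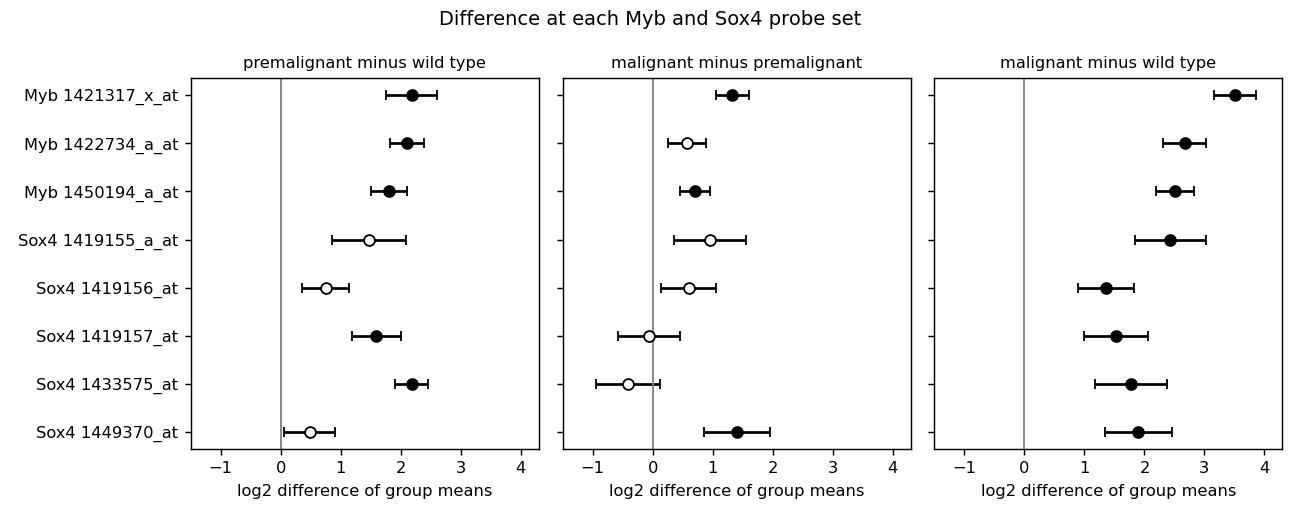
Log2 difference of group means with its SE (horizontal axis) at each of the 8 Myb and Sox4 probe sets that passed the filter (vertical axis), for the 3 comparisons; filled points passed an adjusted p of 0.05 over 10789 probe sets and open points did not. The Myb probe sets share their direction in each comparison, while the Sox4 probe sets lie on either side of 0 between malignant and premalignant samples.

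The order of the stages was wild type, premalignant and malignant for Myb at all 3 probe sets. The neighbours premalignant and malignant overlapped at each of them. For Sox4 the order was wild type, malignant and premalignant at 1433575_at and at 1419157_at, and wild type, premalignant and malignant at the other 3 probe sets that passed the filter. Of the Sox4 probe sets, only 1449370_at passed between premalignant and malignant samples.

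The lymphomas differed more among themselves at Sox4 than at most genes. The SD among 13 lymphomas was 1.25 for Sox4 and 0.57 for Myb, against a median of 0.33 over 6437 genes, which places Sox4 at the 97.9th and Myb at the 84.6th percentile.

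Array by array, the same 6 lymphomas, numbers 1, 3, 6, 7, 10 and 13, were the 6 highest for Myb and for Lef1. Myb stood at 10.22, 9.87, 9.85, 9.94, 9.85 and 10.29 in them and at 9.44 in the next, lymphoma 2, and at 8.77 to 9.44 in the other 7. The same 6 were the highest at each of the other Myb probe sets, with gaps to the seventh lymphoma of 0.69 at 1422734_a_at and 0.55 at 1450194_a_at. Lef1 stood at 2.88, 3.25, 5.02, 4.11, 3.5 and 3.58 in the 6 and at 2.29 to 2.39 in the other 7, and the highest of the 9 wild type and premalignant arrays was 2.86. For Lef1 this is an order of mostly low values, since 4 of the 6 lay below log2 4. Centring the arrays on their medians or on the hybridisation spikes left the same 6 highest for Myb at its 3 probe sets and for Lef1. This set of arrays was noted after the values were seen, it carries no label, and no test was made between it and the other lymphomas.

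Sox4 followed this set in part. It was highest in lymphomas 7 (9.43), 6 (9.12), 1 (9.12), 3 (8.61) and 10 (8.53), while lymphoma 13 (8.01), with the highest Myb, lay in the middle. Lymphomas 2, 5, 11 and 12 stood at 7.74, 7.76, 8.28 and 7.93. Sox4 was lowest in lymphomas 4 (6.45), 8 (5.51) and 9 (5.78), and these were the 3 lowest at each of the 5 probe sets that passed the filter. The 3 were picked by their low Sox4 after the values were seen. Sox4 is therefore in the count below by construction, and its wide gap is no support for the set. Among the 6437 genes, 160 (2.49%), Sox4 included, had exactly these 3 lymphomas lowest, and Sox4 had the second widest gap, 1.29, after Pfkp at 1.30. Cd93, an early B cell surface protein, was another, with rank 8 by gap (0.72), at 6.75 to 7.32 in these 3 and 8.04 to 10.39 in the other 10. The summed stroma and endothelium level was 9.94 to 10.49 in these 3 and 9.57 to 12.26 in the other 10, and beta-actin 3′ minus 5′ was 1.53 to 2.44 and 1.29 to 2.49. Their part in the Sox4 level was not tested.

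**Figure D3:**
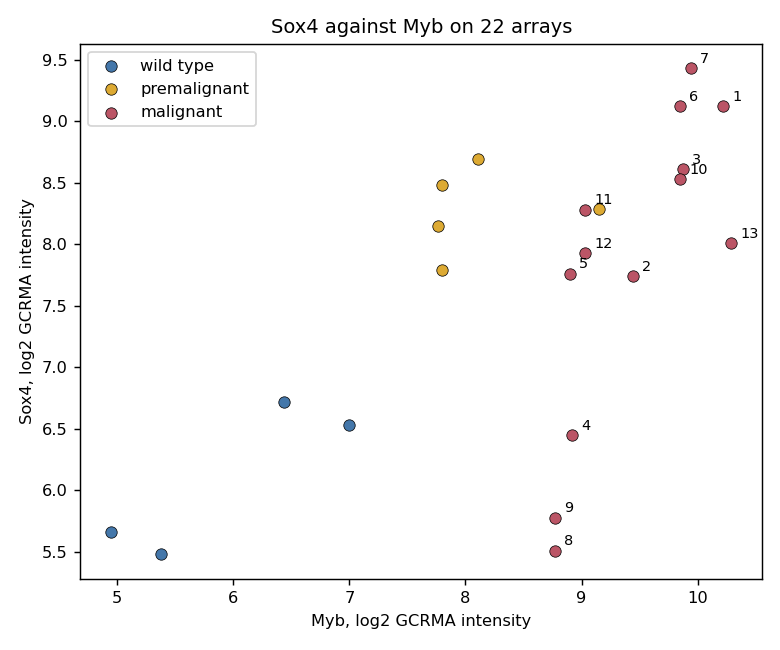
Sox4 against Myb, both as log2 intensity, on 22 arrays; each point is an array, coloured by stage, and numbers name the lymphomas. Lymphomas 1, 3, 6, 7, 10 and 13 lie at the right with Myb of at least 9.85, and lymphomas 4, 8 and 9 lie at the level of wild type arrays for Sox4 with Myb of 8.77 to 8.92.

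Il7r, which carries the interleukin 7 signal that pro-B and pre-B cells grow on, was also highest in the 6 lymphomas that had the most Myb. It stood at 9.15, 7.09, 7.49, 5.21, 7.72 and 7.48 in lymphomas 1, 3, 6, 7, 10 and 13, at 3.04 to 4.82 in the other 7, and at 3.72 to 4.16 on the wild type and premalignant arrays. As a group the lymphomas did not pass for Il7r against premalignant (limma adjusted p = 0.13) or wild type cells (adjusted p = 0.113). Of the 6437 genes, 31 (0.482%), Myb and Il7r included, had these 6 lymphomas highest, and 92 (1.43%) had them lowest. The 6 were picked by their Myb, so Myb is among the first by construction. The widest gaps there were those of Map4k4, a kinase (0.48), Car2, a carbonic anhydrase (0.47), Myb (0.41) and Il7r (0.39). The widest among the second were those of Hepacam2 (1.15), Fryl (0.80) and Cpn1 (0.74), followed by Bckdha, Aldh2, Ptprs and Tbl2. Notch2, the receptor that directs marginal zone B cells, came 8 in that order (0.36). It was at 5.55 to 6.19 in the 6 and 6.55 to 7.52 in the other 7.

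Genes of the pre-B cell stage divided these 6 lymphomas further. Rag1, of the recombinase that joins antigen receptor genes, was at 8.65, 8.68, 8.97 and 8.09 in lymphomas 3, 6, 7 and 10 but at 3.1 in lymphoma 1 and 3.13 in lymphoma 13. Rag2, its partner, exceeded log2 4 only in lymphomas 3 (5.06), 6 (6.01), 7 (4.66) and 10 (5.48). Igll1 and Vpreb1 encode the surrogate light chain of the pre-B cell receptor. Igll1 was highest in lymphomas 1 (12.22), 10 (8.6), 7 (7.21) and 3 (5.26), and Vpreb1 exceeded log2 4 only in the same 4 (10.62, 8.67, 6.36 and 4.55). Lymphoma 13 therefore had high Myb and Il7r, with Rag1, Rag2, Igll1 and Vpreb1 all below log2 4, as was Lef1 (3.58). Outside the 6, Rag1 exceeded log2 4 in lymphomas 2 (5.93) and 12 (4.4), and Igll1 in lymphoma 12 (4.85).

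Measures of other kinds overlapped between the 6 lymphomas and the other 7, which does not show that the sets were alike in them. Myc ran from 8.67 to 10.05 in the 6 and from 9.06 to 10.76 in the 7. Beta-actin 3′ minus 5′ was 1.29 to 2.01 and 1.53 to 2.49, and the mean level of the cell division list was 8.09 to 8.73 and 8.30 to 8.56. The summed level of the T cell list was 7.21 to 8.41 and 6.94 to 8.61. Of that list only Cd4 and Cd2 passed the filter, and Cd3e and Cd3g stayed at or below log2 4 on every array. T cells make Lef1, and their part in its level was not tested. Summed stroma and endothelium genes were at 9.57 to 12.26 and 9.94 to 11.98, and monocyte and macrophage genes at 10.99 to 12.5 and 10.19 to 11.22. Plasma cell genes were at 8.75 to 10.14 and 8.14 to 9.27. Early haematopoietic and myeloid progenitor genes were at 7.83 to 9.17 and 7.48 to 8.48, and neutrophil genes at 7.68 to 12.58 and 6.34 to 12.0. For macrophage, plasma cell, progenitor and neutrophil genes both ends of the range were higher in the 6. For natural killer cell genes (5.92 to 6.06 and 5.94 to 6.2) both were lower.

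**Figure D4:**
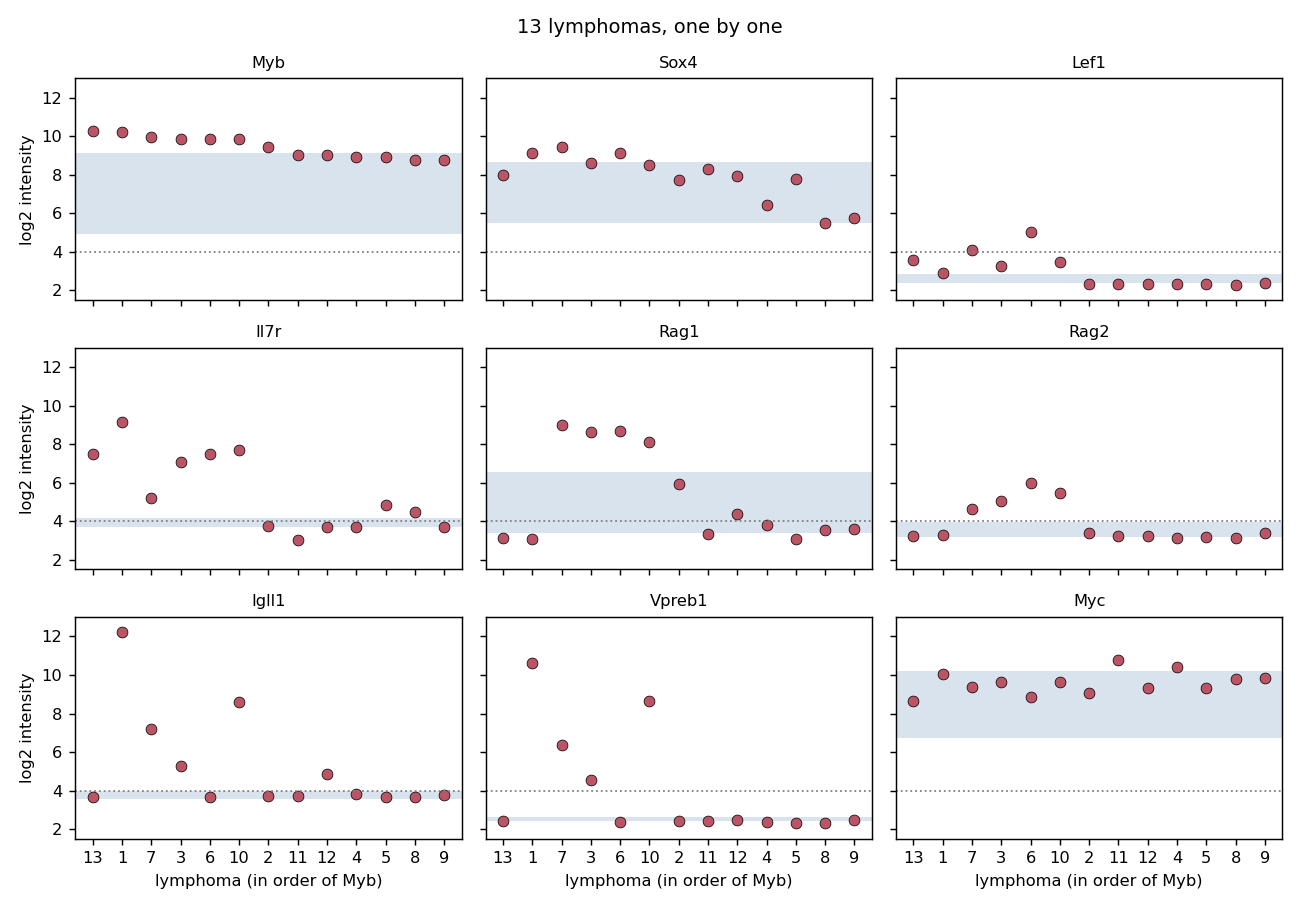
Log2 intensity (vertical axis) of 9 genes in the 13 lymphomas (horizontal axis, in order of falling Myb); each point is a lymphoma, the blue band is the range of the 9 wild type and premalignant arrays, and the dotted line is log2 4. The first 6 lymphomas lie above the band for Lef1 and Il7r, 4 of them below the dotted line for Lef1, whereas Rag1, Rag2, Igll1 and Vpreb1 are high in only some of them and Myc shows no such step.

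Over all 13 lymphomas, 21 planned relations were tested by permutation with Benjamini-Hochberg adjustment. By Pearson's r, Myb passed with Sox4 (r = 0.77, adjusted p = 0.0265) and with Lef1 (0.72, 0.0378). The pro-B and pre-B list mean passed with Myb (0.7, 0.0378) and with Sox4 (0.72, 0.0378), and the others did not pass. By Spearman's rho, Myb with that list did not pass (adjusted p = 0.0686), and Sox4 with Lef1 did (0.0146). The lymphomas fell into these sets, so a pooled r includes the step between them, and Lef1 was mostly below log2 4. Pooled correlations with genes outside these relations are not given. The sets were cut on Myb itself, which narrows its range, and they are small. Relations within them therefore cannot show that the members are unrelated. Within the 6 and within the 7, 34 relations were computed with exact permutation tests, and none passed after Benjamini-Hochberg adjustment (lowest adjusted p = 0.337 for Pearson's r and 0.418 for Spearman's rho). A single relation, of Sox4 with the mean of the stroma and endothelium list in the 7 lymphomas, had an unadjusted exact p under 0.05 (r = 0.91, exact p = 0.00992; rho = 0.89, exact p = 0.0123; r = 0.95 without the 2 lymphomas farthest from the median).

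Genes most like each member over all 22 arrays were named by Pearson's r, as a description; the points share their stage and their arrays. For Myb they were Trim28 (0.96), a corepressor, Sae1 (0.96), of the SUMO activating enzyme, and Psat1 (0.95), of serine synthesis, and 487 genes reached 0.8. For Sox4 they were Ccnh (0.88), Ptcd2 (0.83) and Eef1e1 (0.82), and 3 genes reached 0.8. For Lef1 they were Spry2 (0.85), Pelo (0.84) and Pnp (0.83), and 8 reached 0.8.

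The gene lists below are read against the shares over all genes tested, 12.7% called higher and 14.1% lower from wild type to premalignant cells, 24.8% and 17.3% from premalignant to malignant samples and 31.8% and 29.7% between lymphomas and wild type; a share near these is not a result about a list. Calls of list genes were also followed under the alternatives. In the 3 comparisons 55, 54 and 71 genes were called, over the MYB, SOX, Wnt, early B, mature B and cell division lists. Centring on the spikes ended 19, 9 and 7 of these calls, and 1 fit over the 3 groups ended 15, 0 and 1. The beta-actin 3′ minus 5′ covariate, which does not overlap between lymphomas and the other stages, ended 5, 42 and 23. Myb and Tle5 were among the 12 that kept their call between lymphomas and premalignant cells with the covariate.

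Of the MYB family and its cofactors, 8 of 11 were tested. From wild type to premalignant cells 2 rose and 2 fell, with a list median of 0.30 against -0.05 over all genes. Mybl2, the family member of dividing cells, rose with Myb (at least 1.45-fold, limma adjusted p = 0.0139), and Kmt2a, a histone methyltransferase that binds MYB, fell by 0.63 on the log2 scale (adjusted p = 0.0137; 0.646 when centred on the spikes). Crebbp, the coactivator that MYB recruits, fell by 0.52 (adjusted p = 0.0488), a call that 13 of 18 alternatives lost (adjusted p of 0.0528 to 0.782). From premalignant to malignant samples 4 rose and 0 fell in the limma test (at an unadjusted p under 0.05, 4 and 1; median 0.40 against 0.09): Myb, Mybl2 (2.11-fold, adjusted p = 1.3e-04; 0.241 with the covariate), Crebbp (1.47-fold, adjusted p = 0.00404; 0.505 with the covariate) and Trib2, a pseudokinase (1.97-fold, adjusted p = 0.0191; lost without premalignant replicate 2 and under 2 other alternatives, with adjusted p of 0.0584 to 0.572). Against wild type 3 rose, Myb, Mybl2 (at least 3.05-fold) and Trib2 (2.61-fold), and 0 fell, also at an unadjusted p under 0.05 (median 0.03 against 0.04). Men1, Cebpb and Taf12 passed in no comparison.

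Of 20 SOX family genes only Sox4 and Sox12 passed the filter. Sox12, the close relative of Sox4, had means of 3.83, 3.97 and 4.12 across the stages and passed in no comparison.

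Of the TCF and LEF family and its nuclear cofactors, 10 of 22 were tested, none of them a TCF or LEF protein. Against wild type, premalignant cells had 1 gene higher and 3 lower (median -0.03). Smarca4, the chromatin remodelling ATPase, rose 2.45-fold (limma adjusted p = 0.00374), and Tle4 (fell by 0.76), Tle5 (fell by 0.59) and Hdac1 (fell by 0.53) were lower. None of these 3 was called when arrays were centred on the spikes (adjusted p of 0.512, 0.702 and 0.755), and leaving out wild type replicate 1, 3 or 4, or replicate 4 of the premalignant group, ended the Tle5 call. Lymphomas had 4 higher and 1 lower than premalignant cells (median 0.30). Ctnnb1, which encodes beta-catenin, was 1.39-fold higher (adjusted p = 0.00898), Ctbp1 1.66-fold (adjusted p of 0.273 with the covariate), Tle1 at least 1.19-fold and Smarca4 1.40-fold. Tle5 was 4.33-fold lower (adjusted p = 8.6e-04). The calls of Tle1 and Smarca4 were each lost under 14 of 27 alternatives (adjusted p of up to 0.789 and 0.617), and those of Ctnnb1 and Smarca4 were lost, with 1 change of sign each among the alternatives, over the mean of their probe sets or on the spike scale. Against wild type, lymphomas had 3 higher (Ctnnb1, Ctbp1 and Smarca4, the last 3.43-fold) and 3 lower (Tle3, Tle4 and Tle5, the last 6.53-fold), with a median of 0.34. The Tle4 call was lost on the spike scale (adjusted p = 0.186), that of Ctbp1 with the covariate (0.133), and that of Ctnnb1 with the covariate and over the mean of its probe sets (0.314 to 0.499). Tle3 was no longer called without wild type replicate 1, 2 or 4 (adjusted p of 0.0682 to 0.742 over the alternatives that lost it). Pygo2 and Hdac2 passed in no comparison.

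Wnt ligands and receptors were mostly below the filter: 4 of 39 were tested. Premalignant cells had 1 higher than wild type, Lgr5, whose means of 3.97 and 3.28 are below log2 4, and 13 of 18 alternatives lost that call. Lymphomas had 2 higher than premalignant cells, the coreceptor Lrp6 (1.59-fold, adjusted p = 0.0261) and Ryk, with means below log2 4. They had the same 2 higher than wild type, and Sfrp1, a secreted Wnt inhibitor, lower (at least 1.34-fold; adjusted p = 9.9e-04, and 0.698 on the spike scale). Lrp6 lost its call without premalignant replicate 3, 4 or 5 against premalignant and under 15 of 26 alternatives against wild type. Ryk lost its call against premalignant cells under 7 of 27. Of 12 tested members of the beta-catenin destruction complex and the signal relay, 1 rose from wild type to premalignant (Btrc, 1.90-fold; adjusted p of 0.0515 with 1 fit over the 3 groups), 2 from premalignant to malignant (Gsk3a, 1.36-fold, lost on the spike scale and with the covariate, and Csnk1g2, 1.59-fold), and against wild type lymphomas had 2 higher (Gsk3a, not with the covariate, and Btrc, the latter not without wild type replicate 3 or 4) and 2 lower (Csnk1d, lost under 15 of 26 alternatives, and Dvl1, lost without wild type replicate 3). At an unadjusted p under 0.05, 1 member of that list was lower in premalignant than in wild type cells. The medians of that list were -0.21, 0.08 and -0.10.

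Of 18 Wnt target genes, 6 were tested. Axin2, the common feedback target, was below log2 4 on every array. Ccnd1, which encodes cyclin D1, rose at least 2.01-fold in premalignant cells (limma adjusted p = 0.0224; 0.0509 to 0.0876 under the 6 alternatives that lost it, wild type replicate 1 or 4 left out among them) and another 7.54-fold in lymphomas (adjusted p = 8.2e-04; 0.185 with the covariate). Among the lymphomas it was lowest in 13 (4.02) and 1 (6.62), which had the most Myb. In lymphomas 3, 6, 7 and 10, next in Myb, Ccnd1 stood at 8.8, 8.1, 8.74 and 8.38, and in the others at 7.67 to 8.89. Myc, itself the transgene, was 7.59-fold higher in premalignant (adjusted p = 1.4e-05) and 5.83-fold higher in malignant samples than in wild type. Jun, an AP-1 factor, fell at least 13.67-fold and Id2 2.98-fold from premalignant to malignant samples (the second adjusted p = 0.177 with the covariate). In all, 3, 1 and 2 of the 6 rose and 0, 2 and 2 fell in the 3 comparisons, as they did at an unadjusted p under 0.05. The medians were 0.55, -0.41 and 0.38. Those that rose in premalignant cells were Ccnd1, Myc, which is the transgene, and Lgr5, with means of 3.97 and 3.28, below log2 4. Lgr5 is also on the Wnt receptor list, and 13 of 18 alternatives lost its call. Those higher in lymphomas than in wild type were Ccnd1 and Myc. Ccnd2 was 5.04-fold lower in lymphomas than in premalignant cells (adjusted p = 0.00792; 0.379 with the covariate), and Ccnd3 was 1.81-fold higher in premalignant than in wild type cells (adjusted p = 0.039), a call that 9 of 18 alternatives lost (adjusted p of 0.0571 to 0.176).

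Of 16 MYB target genes, 9 were tested: 1, 1 and 2 rose and 2, 1 and 3 fell, with medians of -0.07, 0.32 and 0.58. The 1 that rose in premalignant cells was Myc, the transgene, so its rise is given by the genotype. The 2 higher in lymphomas than in wild type were Myc and Gfi1. With 12.7%, 24.8% and 31.8% of all genes higher and 14.1%, 17.3% and 29.7% lower, these few calls are not a result about the list. Bcl2, which protects from apoptosis, was at 5.11, 5.31, 4.03 and 4.3 in wild type and below log2 4 on all 18 premalignant and malignant arrays. It was at least 1.61-fold lower in premalignant cells (limma adjusted p = 0.00335; 0.0808 when centred on the spikes) and in lymphomas (adjusted p = 1.9e-06). Lmo2, a blood cell cofactor, fell 2.67-fold (lost with 1 fit over the 3 groups, adjusted p = 0.136) and then a further 3.25-fold (lost without premalignant replicate 2 or 5, on the spike scale and with the covariate, adjusted p of up to 0.565), and Gfi1, a repressor, rose 2.43-fold from premalignant to malignant samples (adjusted p = 0.00428; 0.786 with the covariate). Cxcr4, the chemokine receptor that holds B cells in the marrow, was 1.74-fold lower in lymphomas than in wild type (adjusted p = 0.0124; lost without wild type replicate 1 or 4). Ebf1, the B lineage factor, passed in no comparison.

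Of 22 pro-B and pre-B cell genes, 14 were tested. From wild type to premalignant cells 4 rose and 0 fell in the limma test (5 and 0 at an unadjusted p under 0.05; median 0.18): Rag1 (at least 4.23-fold, limma adjusted p = 1.5e-05, on 5 of 5 arrays), Xrcc6 (3.44-fold), Vpreb3 (1.99-fold) and Cd93 (1.80-fold). Of these, Rag1 lost its call with 1 fit over the 3 groups (adjusted p = 0.135), Cd93 under 13 of 18 alternatives, and Vpreb3 under 3, among them without wild type replicate 3 or 4. Lymphomas had 2 higher than premalignant cells, Cd93 (5.66-fold, adjusted p = 8.2e-04; 0.117 with the covariate) and Cd24a (1.38-fold, lost under 20 of 27 alternatives), and 0 lower (4 and 0 at an unadjusted p under 0.05; median 0.56). Against wild type 5 were higher and Flt3, the early lymphoid cytokine receptor, was lower (1.21-fold; lost without wild type replicate 1 or 4; median of the list 1.34). Kit and Dntt, of the earliest lymphoid cells, were below log2 4 on every array.

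Other lists changed as well. Of 24 B lineage transcription factors, 0, 1 and 2 rose and 12, 15 and 18 fell in the 3 comparisons (0, 1 and 2 higher and 14, 16 and 18 lower at an unadjusted limma p under 0.05), with medians of -0.61, -0.86 and -1.35. Of 19 mature B cell genes 0 rose in any comparison, also at an unadjusted p under 0.05, and 15, 18 and 19 fell, with medians of -1.06, -2.79 and -3.58; the largest falls on the log2 scale from wild type to lymphoma were those of Cxcr5 (-7.38, at least 58.55-fold), Cr2 (-7.12, at least 59.62-fold), Cd83 (-6.78, at least 48.23-fold) and Ly6d (-6.59, 96.60-fold). Of 23 cell division genes, 22, 16 and 21 rose and 0, 1 and 1 fell, with medians of 1.59, 0.68 and 2.36; the largest rises from wild type to premalignant cells were those of Aurkb (8.47-fold), Ccna2 (7.79-fold), Bub1b (7.62-fold) and Bub1 (at least 4.44-fold), ranked by log2 difference. Of 12 stroma and endothelium genes, 0, 10 and 10 rose and 2, 1 and 1 fell, with medians of -0.04, 3.56 and 3.42; at an unadjusted p under 0.05 none rose in premalignant cells. A choice made after the data were seen left out the arrays of lowest correlation, wild type replicate 2 and premalignant replicate 1. Myb and Sox4 then kept each of their calls, with differences of 2.28 and 2.32 for premalignant against wild type. Without those arrays, the MYB family had 2 higher and 1 lower in that comparison, the pro-B and pre-B list 3 higher and the mature B cell list 16 lower.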

How the data were processed

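Gene expression was read on 22 MOE430A arrays, 4 wild type, 5 premalignant and 13 malignant. The authors' deposited values are linear intensities made with GCRMA, per the submitters' processing notes, and its version was not given in the sources used here. GCRMA corrects background by probe sequence and brings arrays to a common distribution, so a change shared by most genes is removed. Log2 was taken here. Of 22690 probe sets, 20380 had 1 symbol, 691 several and 1555 none, and 64 were controls. A filter of log2 above 4 on at least 4 arrays left 10789, and 6437 genes, each through its probe set of highest mean. Each pair of groups was fitted with limma 3.58.1 in R 4.3.3 (two-sided, Benjamini-Hochberg over all genes, threshold 0.05), tested on simulated data. Folds are "at least" where a mean under log2 4 was raised to it, and are left out where both means are under it. No pair of arrays was identical. Same-numbered replicates deviated together with r of -0.11 to 0.21, so numbers were not taken as pairs. Members and lists were chosen with earlier results of these data known. Named genes are all member probe sets, the genes most like each member over all arrays, all tested MYB, SOX and TCF/LEF list members, 15 progenitor and cyclin genes, and, from the other lists, called members among the 4 largest log2 changes in a direction. Other genes are named for a pattern among the lymphomas, out of the 8 widest gaps of each pattern, and were chosen after the sets were seen. Cell type markers are named where the level of their list is given. The planned relations over 13 lymphomas used 100000 permutations. Pooled correlations with genes outside these relations were planned and are not given, because the lymphomas fell into sets. The alternatives were other summaries, filters, scalings, fits and arrays left out.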

Additional observations from a re-analysis of the deposited data

Results flagged for a closer look

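Of 24 groups of 4 or 5 arrays examined (the 10 member probe sets, Myc and the beta-actin difference, in wild type and premalignant samples), 2 held an array far from the rest, and chance alone flags about 1 in 20 such groups. Premalignant replicate 1 was at 9.15 for Myb (probe set 1421317_x_at), with the other premalignant arrays at 7.76 to 8.11. The same array was at 5.15 for Sox4 at 1449370_at, with the others at 2.99 to 3.02. It also correlated least with its group.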

How the results depend on the processing

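Myb kept its direction under every alternative in all 3 comparisons, and its calls under every alternative except 1 probe set, 1422734_a_at, between malignant and premalignant samples (0.57). Sox4 between premalignant and wild type samples was not called at the probe sets 1419155_a_at (1.47), 1419156_at (0.75) or 1449370_at (0.48). Between malignant and premalignant samples, where it was not called, its difference of -0.41 became 0.50 over the mean of its probe sets, 0.96 and 0.60 at 1419155_a_at and 1419156_at, 0.16 with beta-actin 3′ minus 5′ as a covariate, and turned to a called 1.41 at 1449370_at. Between malignant and wild type samples it was not called with that covariate (2.42) and ran from 1.56 to 1.98 with each replicate left out. The covariate does not overlap between lymphomas and the other stages. For Lef1 spike centring gave 0.34 between premalignant and wild type samples. The counts of genes called, 1725, 2711 and 3956, became 2635, 4658 and 6557 with every probe set on its own, which tests more features; the last 2 became 4929 and 7921 without the filter and 321 and 1879 with the covariate; and the first 2 became 560 and 1771 with spike centring. With the replicate number as a block, which fits fewer arrays, 1677 were called between malignant and premalignant samples, and no call of Myb or Sox4 changed. Except where the construction is given, the cause was not tested. Leaving out wild type replicate 2 and premalignant replicate 1, chosen after seeing the data, changed no call of Myb or Sox4. Alternatives of the planned correlations over all lymphomas were not given. For arrays, signal over background limits Lef1 and 4 of the Sox4 probe sets, which lay near log2 4 or below it.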
